A study of Rattus norvegicus with 6 samples.

Results

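The genes followed here, through 6 libraries of rat striatum, belong to GABA neurons. They are the glutamate decarboxylases Gad1 (ENSRNOG00000000007) and Gad2 (ENSRNOG00000018200), and the interneuron genes Sst (ENSRNOG00000001837), Npy (ENSRNOG00000046449), Pvalb (ENSRNOG00000006471) and Nos1 (ENSRNOG00000001130). All were taken by Ensembl ID, each kept because the chromosome in the count tables matched that of the named gene, and they are 6 of the 32552 genes counted. The tissue came from male Sprague-Dawley rats injected into the peritoneal cavity, 3 samples from controls given 0.9% NaCl and 3 from rats given MnCl2 at 25 mg/kg, both over 15 days. Whether that dose was daily or a total, the age of the rats, and whether every sample is a different rat are not stated, so a p-value speaks only of the spread between samples, which may be technical. Libraries keep their labels' numbers (control 1, control 2, control 4, Mn-exposed 13, Mn-exposed 14, Mn-exposed 17), and values are given in that order.

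Almost all neurons of the striatum release GABA, the main inhibitory transmitter of the brain. GABA is made from glutamate by 2 enzymes, GAD67 (Gad1), found throughout the cell, and GAD65 (Gad2), held mostly at nerve terminals. Both are made by the projection neurons as well as by the far fewer GABA interneurons. One class of interneuron makes the peptides somatostatin (Sst) and neuropeptide Y (Npy) together with neuronal nitric oxide synthase (Nos1), which makes the gas messenger nitric oxide. Another, the fast-spiking class, makes parvalbumin (Pvalb), a calcium buffer that is also made by many neurons of the cortex and globus pallidus. Manganese in excess gathers in the basal ganglia, and the comparison with controls asks how exposure alters the transcripts of the striatum.

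Promoter windows were taken from RefSeq on the GRCr8 build, 250 bases before to 50 bases after each gene's annotated start, and all 6 genes had one. They were searched on both strands for the cAMP response element (CRE) TGACGTCA, the element through which the transcription factor CREB acts on the Sst gene. The windows of Sst and Nos1, which mark the same interneurons, held it and the other 4 did not, while 1.83% of all 33469 windows of this length did. It was 1 of 4 motifs searched, and it had been listed beforehand for Sst and Nos1, so these matches were foreseen. Whether both genes are controlled through it was not tested. The CRE half-site TGACG, which the full element contains, was in 3 windows of the 6 (Sst, Nos1 and Pvalb) and 21.2% of all. The TATA box letters TATAAA were in 1 (Gad1, at position -213 from the annotated start) and 14.2%. The GC box GGGCGG was in 4 of the 6 and 33.1%. The Sst and Nos1 windows are shown 5' to 3' with the full CRE in capitals. The Sst window lies at chr11:90461296-90461595 (GRCr8, plus strand), with the element at bases 253 to 260 of the window. That is downstream of the annotated start, from position 3. Whether transcription begins at the annotated start was not tested, so the element need not lie in transcribed sequence. The Nos1 window lies at chr12:44371788-44372087 (GRCr8, minus strand), with the element at bases 242 to 249. A match is a run of letters and not a measured binding site. Only the exact letters were searched, so a window without a match may still hold a variant of the element.

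Sst promoter: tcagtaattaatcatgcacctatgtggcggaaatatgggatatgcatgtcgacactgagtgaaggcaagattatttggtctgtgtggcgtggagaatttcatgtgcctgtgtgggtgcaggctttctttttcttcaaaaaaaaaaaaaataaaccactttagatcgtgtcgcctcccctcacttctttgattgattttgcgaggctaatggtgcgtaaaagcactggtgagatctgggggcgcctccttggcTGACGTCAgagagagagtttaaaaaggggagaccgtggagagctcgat

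Nos1 promoter: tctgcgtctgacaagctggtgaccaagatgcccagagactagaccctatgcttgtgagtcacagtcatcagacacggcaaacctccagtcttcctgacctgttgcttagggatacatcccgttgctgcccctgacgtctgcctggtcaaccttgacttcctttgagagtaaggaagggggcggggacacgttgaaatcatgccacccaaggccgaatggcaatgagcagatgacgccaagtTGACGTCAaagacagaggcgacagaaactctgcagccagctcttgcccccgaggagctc

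The libraries held 21754379 to 32569760 counts, with 19356 to 20094 genes detected in each. Mitochondrial features took 13.9% to 16.6% of counts in controls and 8.64% to 13.8% in Mn-exposed libraries. On the first principal component of the 1000 most variable nuclear genes other than the 6, which held 44.7% of their variance, control 1 (-24) and Mn-exposed 13 (-22.6) lay at one end and Mn-exposed 14 (34.1) and 17 (20.3) at the other. The files give no gene names, so the markers of projection neurons, glia and cortex and the other GABA genes on the lists drawn up for this comparison were not analysed here. The labelled tissue could therefore be set beside the 6 genes alone. Gad1 and Gad2 ranked above 98.5% and 98.3% of the 15252 genes tested by mean log2 CPM. CPM are counts relative to the library's size, scaled between libraries with TMM factors. Both genes mark GABA neurons in general, so these ranks cannot show that the tissue is striatum alone.

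Per kilobase of exon, which allows genes to be compared, the order of mean level was Sst (142 CPM per kb, 94.7 to 187 over the libraries), Gad1 (120, 97.2 to 153), Gad2 (79.9, 58.4 to 99.1), Pvalb (58.0, 17.8 to 151), Nos1 (7.46, 4.08 to 10.2) and Npy (0.524, 0.247 to 0.705). Sst and Gad1 overlapped in range, as did Gad1 and Gad2, and Pvalb overlapped all of these 3. Nos1 lay below every value of those 4 genes, and the Npy row below every value of Nos1. That row held 3 to 12 counts a library, and a second row of like structure lies beside it. Its place in this order is therefore not a measure of the level of Npy, as set out below.

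**Figure D1:**
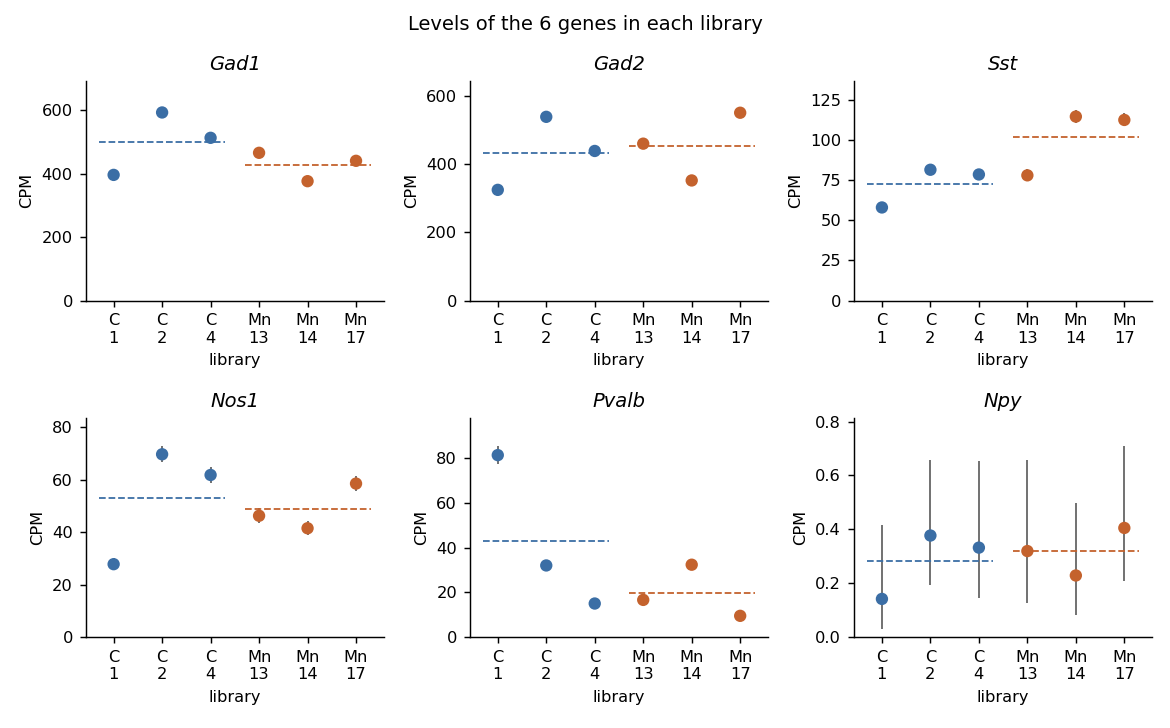
CPM of each gene (y axis, from 0, scales differ) in each of the 6 libraries (x axis; C, control, blue; Mn, Mn-exposed, orange). Points are libraries, vertical lines are 95% Poisson intervals of the count, and dashed lines are group means; the groups overlap in every panel, and Pvalb runs from 9.56 CPM in Mn-exposed 17 to 81.2 in control 1.

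None of the 5 genes that entered the test passed it as a difference between Mn-exposed and control striatum. In edgeR's quasi-likelihood test, 0 of the 5 passed an adjusted p of 0.05 (0.665 to 0.943), where 0% of the 15252 genes tested passed. At an unadjusted p under 0.05 there was 1, Sst, where 7.47% of all genes lay. DESeq2, which also tested Npy, called 0 of the 6 and 0.403% of its 22856 genes. Groups that did not overlap in CPM were found for 0 of the 5 genes tested, against 12.1% of all genes tested, and Npy, which was not in that test, overlapped as well. Of the 5 estimates 2 were above 0 and 3 below, with a median log2 fold change of -0.12 against 0.02 for all genes. Scaling by library size alone moved the median of all genes to 0.12 and turned the direction of none of the 5.

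**Figure D2:**
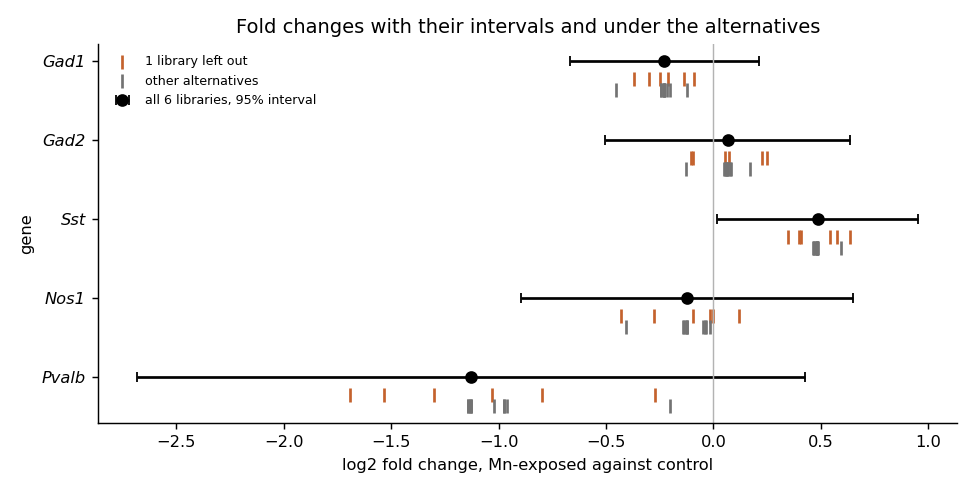
Log2 fold change, Mn-exposed against control (x axis), of the 5 tested genes (y axis). Black points are edgeR estimates with 95% intervals, orange ticks the fits with 1 library left out, grey ticks the other alternatives; the interval of Sst, 0.02 to 0.95, is the one that lies above 0 and that of Pvalb, -2.68 to 0.42, is the widest.

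Gad1 encodes GAD67, at chr3:56861396-56902157, plus strand (Rnor_6.0, as are all gene positions below), with 19 merged exons. The controls stood at 396, 592 and 512 CPM and the Mn-exposed libraries at 465, 376 and 440 CPM. All 3 Mn-exposed values lay below the control mean, but control 1 lay below 2 of them. The means were 500 ± 98.8 CPM in controls and 427 ± 46.0 in Mn-exposed libraries (SD, n = 3 each). The log2 fold change was -0.23 (SE 0.19, 95% interval -0.67 to 0.21), with an adjusted p of 0.743. Leaving out control 1 gave -0.37, leaving out control 2 gave -0.09, and leaving out control 1 with Mn-exposed 13 gave -0.45 (adjusted p 0.216 in edgeR). In bulk tissue, fewer cells of a type and less RNA per cell cannot be told apart, here or in the results that follow.

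Gad2 encodes GAD65, at chr17:89171250-89238040, plus strand, with 16 merged exons. Its levels were 325, 539 and 439 CPM among controls and 460, 352 and 551 CPM after exposure. The 2 groups covered nearly the same range, with means of 434 ± 107 and 455 ± 99.4 CPM. The log2 fold change was 0.07 (SE 0.24, interval -0.50 to 0.63), with an adjusted p of 0.943. The sign turned negative when control 1 (-0.11) or Mn-exposed 17 (-0.09) was left out, and when control 1 and Mn-exposed 13 both were (-0.13).

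The balance between the 2 enzymes was lower in all 3 Mn-exposed libraries than in any control. Gad1 counts per Gad2 count were 1.22, 1.10 and 1.17 among controls and 1.01, 1.07 and 0.799 after exposure. A ratio within a library does not depend on how libraries are scaled. The counting intervals of control 2 (1.08 to 1.12) and Mn-exposed 14 (1.04 to 1.10) overlapped, so at this depth those 2 libraries cannot be told apart. The mean log2 ratio was 0.22 ± 0.08 in controls and -0.07 ± 0.22 in Mn-exposed libraries (SD, n = 3 each), a difference of -0.29. A two-sided exact permutation test gave p = 0.1, the smallest that 3 samples against 3 can give, or 0.233 adjusted over the 7 ratios computed. Without Mn-exposed 17, the library with the lowest ratio, the difference was -0.16. Over all genes, the ratio to Gad1 did not overlap between the groups for 10.2%.

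**Figure D3:**
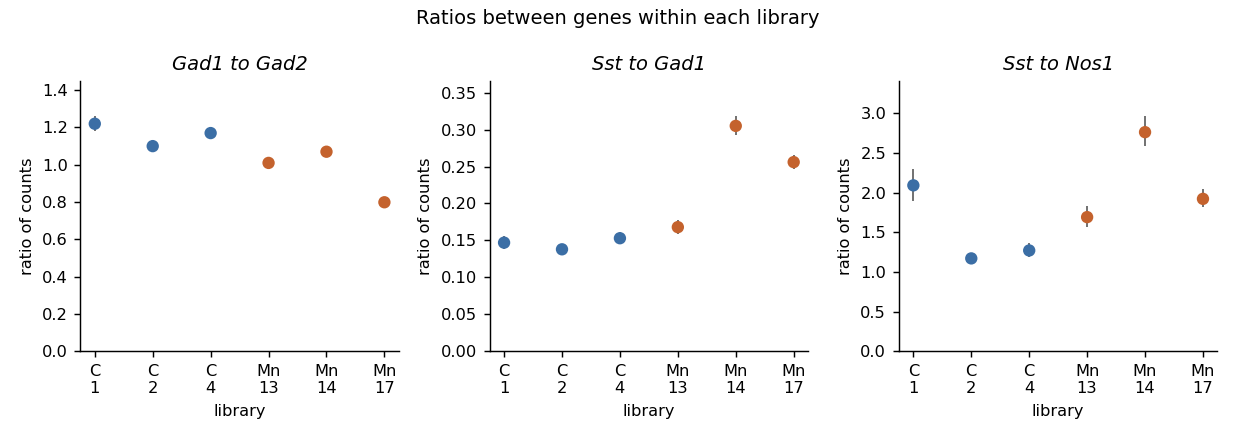
Ratio of counts between 2 genes (y axis, from 0) within each library (x axis; C, control, blue; Mn, Mn-exposed, orange), with 95% binomial intervals as vertical lines. Gad1 to Gad2 is 1.10 to 1.22 in controls and 0.799 to 1.07 in Mn-exposed libraries, Sst to Gad1 is 0.138 to 0.153 and 0.168 to 0.305, and Sst to Nos1 overlaps.

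Sst encodes the precursor of somatostatin, a peptide that dampens the activity of its target cells, and lies at chr11:80358211-80359444, plus strand, in 2 exons. Controls held 58.1, 81.6 and 78.6 CPM and Mn-exposed libraries 78.1, 115 and 113 CPM. Mn-exposed 14 and 17 were above every control, while Mn-exposed 13 lay just under control 2 and 4. The means were 72.7 ± 12.8 and 102 ± 20.6 CPM (SD, n = 3 each), a 1.40-fold difference. The log2 fold change was 0.49 (SE 0.20, interval 0.02 to 0.95), with an unadjusted p of 0.0444 and an adjusted p of 0.665 in edgeR. Leaving out control 1, control 4, Mn-exposed 14 or Mn-exposed 17 in turn put the unadjusted p at 0.113, 0.0637, 0.134 and 0.127, and limma-voom gave 0.0501, while the log2 fold change stayed between 0.35 and 0.64 with any 1 library left out. The unadjusted p was smaller, at 0.0103, without Mn-exposed 13, and 0.00269 without control 1 and Mn-exposed 13 together (adjusted 0.101). With the ID numbers as a block the unadjusted p was 0.00209 in edgeR and 0.00177 in DESeq2, and the adjusted p was 0.245 in edgeR and 0.0706 in DESeq2. Over all genes, too, more lay under an unadjusted p of 0.05 in these fits. In edgeR the main fit had 1139 of 15252. There were 2351 of 15494 without Mn-exposed 13, 2692 of 15378 without both libraries, and 2115 of 15252 with the block. DESeq2 had 1713 of 22862 with the block and 1463 of 22856 without it.

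Relative to Gad1, Sst was higher in every Mn-exposed library. There were 0.147, 0.138 and 0.153 Sst counts per Gad1 count among controls, against 0.168, 0.305 and 0.256. The difference of mean log2 ratios was 0.69, from -2.78 ± 0.08 to -2.08 ± 0.44 (SD, n = 3 each), and the same two-sided exact permutation test gave p = 0.1, again the smallest possible (adjusted 0.233). The difference was 0.51 without Mn-exposed 14 and 0.94 without Mn-exposed 13. For 10.2% of all genes, too, the ratio to Gad1 did not overlap between the groups. The ratios of Sst to Gad1 and of Gad1 to Gad2 share Gad1 and are not independent.

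With all 6 libraries, Sst was the one of the 6 genes that followed library-wide measures most closely. Its log2 CPM went against the mitochondrial share of counts at Pearson's r = -0.898, with an exact permutation p of 0.00833, or 0.0917 after adjustment over 12 relations. Spearman's rho was -0.771 (exact p = 0.103, adjusted to 0.617). Without control 1 and Mn-exposed 14, the 2 libraries farthest from the median share, r was -0.978. The share did not overlap between the groups (lowest control 13.9%, highest Mn-exposed 13.8%), so over all 6 libraries its relation with Sst cannot be told apart from exposure. Within each group, the library with the highest share had the lowest Sst. These were control 1 (16.6%, 58.1 CPM) and Mn-exposed 13 (13.8%, 78.1 CPM). Control 2 and control 4 had nearly the same share as each other (13.9%). Correlations within groups, and how many of all genes followed these measures as closely, were not computed. With the first component r was 0.918 (exact permutation p = 0.0153, adjusted 0.0917) and rho was 0.943 (exact p = 0.0167, adjusted 0.200). Without Mn-exposed 14 and 17, the farthest on that component, r was 0.647. For the other 5 genes r with either measure lay between -0.349 and 0.326 over all libraries. Without Mn-exposed 14 and 17, however, r with the component was higher than that of Sst for Nos1 (0.845), Gad1 (0.799) and Npy (0.671). The log2 fold change of Sst was 0.48 when mitochondrial features were left out of the library sizes. TMM factors were applied there as in the main fit, so this value does not test the relation with the mitochondrial share. The part of the mitochondrial share or of the component in the Sst difference was not tested.

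Nos1 encodes neuronal nitric oxide synthase, at chr12:44213943-44520341, minus strand, in 30 merged exons. One other annotated gene overlaps its span, but not its exons. Nos1 stood at 27.8, 69.7 and 61.8 CPM in the controls, against 46.3, 41.5 and 58.5 CPM with exposure. Control 1 was the lowest of all 6 libraries and the other 2 controls were the highest. The means were 53.1 ± 22.2 and 48.8 ± 8.78 CPM, with a log2 fold change of -0.12 (SE 0.33, interval -0.90 to 0.65) and an adjusted p of 0.916. Without control 1 it was -0.43 (adjusted p 0.576, interval -0.84 to -0.03), and without control 2 it was 0.12. Nos1 varied within groups by an SD of 0.54 on the log2 scale, more than 96.1% of the 1573 genes within 25% of its level.

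Although Sst and Nos1 mark the same interneurons, they did not keep a constant ratio. Sst counts per Nos1 count were 2.09, 1.17 and 1.27 for the controls, against 1.69, 2.76 and 1.92. Control 1 lay among the Mn-exposed libraries. The difference of mean log2 ratios was 0.51 (two-sided exact permutation p = 0.3, adjusted 0.525), and 0.77 without control 1. This ratio was chosen after the levels had been seen.

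Pvalb encodes parvalbumin, at chr7:119429019-119441487, minus strand, in 4 exons. Its levels ran 81.2, 32.0 and 15.1 CPM across the controls and 16.7, 32.4 and 9.56 CPM across the exposed. Control 1 was 2.51 times the next library, and controls 2 and 4 lay within the range of the Mn-exposed libraries. From highest to lowest, Pvalb differed 8.49-fold, against 1.58-fold for Gad1, 1.70-fold for Gad2 and 1.98-fold for Sst. Even the smallest count, 283 in Mn-exposed 17, had a 95% Poisson interval of 251 to 318, so counting error, the one source these intervals cover, was small beside this spread. The within-group SD of 1.06 on the log2 scale was larger than that of 99.4% of the 1630 genes within 25% of its level, whose median was 0.18.

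The group means of Pvalb were 42.8 ± 34.4 and 19.5 ± 11.7 CPM (SD, n = 3 each), with a log2 fold change of -1.13 (SE 0.66, interval -2.68 to 0.42) and an adjusted p of 0.683. Without control 1 the fold, Mn-exposed over control, was 0.828 in place of 0.457, and the log2 fold change was -0.27. With Mn-exposed 13 left out as well it was -0.20. Other libraries moved it the other way, to -1.53 without control 4 (interval -2.92 to -0.15, unadjusted p 0.0352, adjusted 0.831) and to -1.69 without Mn-exposed 14. With the ID numbers as a block, DESeq2 gave -0.97 (interval -1.71 to -0.24, unadjusted p 0.00971, adjusted 0.184) and edgeR gave -0.96 (adjusted p 0.422). Relative to Gad1 the log2 difference was -0.76 (two-sided exact permutation p = 0.6, adjusted 0.7) and 0.03 without control 1. An interval this wide holds both no difference and a difference of several fold.

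Npy could not be measured in these tables. Its row, at chr4:79573998-79581208 on the plus strand, held 3, 12 and 8 counts among controls and 7, 6 and 12 with exposure, which is 0.200% to 0.463% of the Sst counts of the same libraries. It did not pass the filter on low counts. A second row, ENSRNOG00000009768, lies 8900 bases upstream on the same strand, at chr4:79557854-79565097. Both rows have 4 exons. The middle exons are 188 and 81 bases long in both, the introns are 792, 4091 and 1753 bases in the first row and 792, 4092 and 1753 in the second, and the outer exons differ (108 and 198 bases against 98 and 240). RefSeq lists 1 Npy gene on GRCr8. The second row was as low, at 3, 9 and 12 counts in controls and 3, 10 and 18 in Mn-exposed libraries. Reads that match 2 places equally are dropped or divided by many counters, their treatment by the authors is not given in the sources used here, and the sequences of the 2 rows were not compared. The level of Npy therefore cannot be read from either row. Pooled over libraries there were 23 counts in controls and 25 in Mn-exposed libraries, a log2 ratio of 0.21 with an exact binomial interval of -0.66 to 1.10, which covers counting error and no spread between samples. Leaving out control 1 turned it to -0.05, Mn-exposed 17 to -0.06 and control 2 to 0.52. With the rows summed, an alternative chosen after the counts were seen, it was 0.35 (-0.24 to 0.94).

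Among the other 5 genes, the pairs of Gad1, Gad2 and Nos1 had positive correlations and those with Pvalb negative ones, but no pair passed adjustment and the sign of some pairs with Pvalb depended on 1 or 2 libraries. Correlations of log2 CPM were computed for all 15 pairs of the 6 genes with exact permutation tests over the 6 libraries. For Pearson's r, 0 of the 15 passed an adjusted p of 0.05 and 4 had an unadjusted p under 0.05, of which 3 involved the sparse Npy row. For Spearman's rho, 0 passed and 2 were under 0.05 unadjusted.

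For Gad2 and Nos1, r was 0.873, with an exact permutation p of 0.0139 (adjusted to 0.0694), and rho was 0.714, with an exact p of 0.136 (adjusted to 0.340). Of all genes tested, 1.08% followed Gad2 at least as closely as Nos1 did. Without control 1 and Mn-exposed 14, the libraries farthest from the median of Gad2, r was 0.434, so the relation rests in part on those libraries. For Gad1 and Nos1, r was 0.798, with an exact permutation p of 0.0542 (adjusted to 0.163), and rho was 0.886, with an exact p of 0.0333 (adjusted to 0.219). That r was 0.828 without control 2 and Mn-exposed 14. Of all genes, 3.16% followed Gad1 as closely. For Gad1 and Gad2, r was 0.725, with an exact permutation p of 0.111 (adjusted to 0.208), and rho was 0.543, with an exact p of 0.297 (adjusted to 0.495). Leaving out Mn-exposed 17, the library with the lowest ratio of the pair, gave 0.934, and leaving out control 2 and Mn-exposed 14 gave 0.496. Of all genes, 5.54% followed Gad1 at least as closely as Gad2 did. After the group means were removed, a description with no test, the 3 pairs stood at 0.885, 0.893 and 0.906 in that order.

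**Figure D4:**
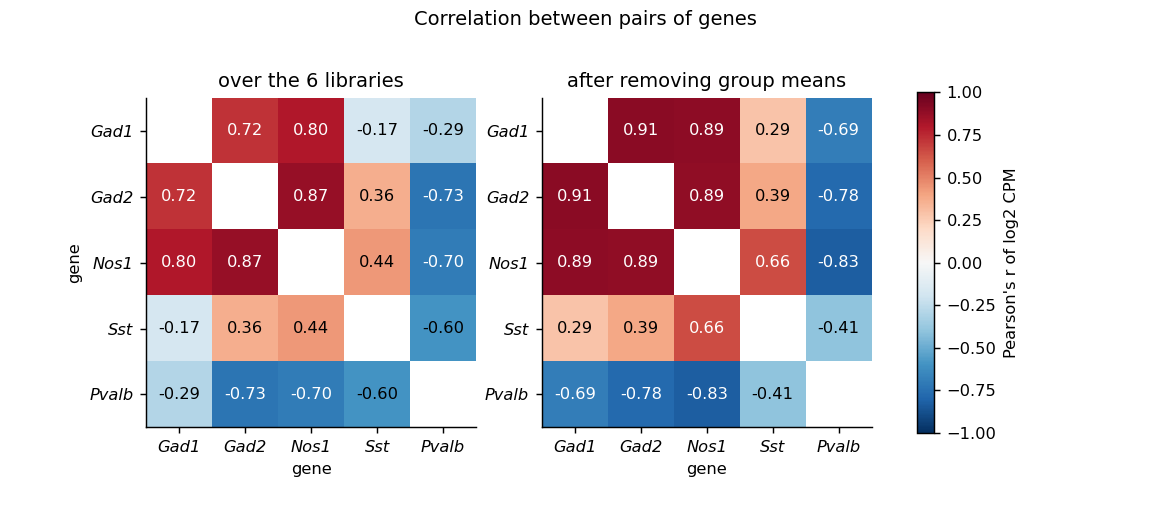
Pearson's r of log2 CPM between pairs of genes (both axes; red positive, blue negative), over the 6 libraries on the left and after removing group means on the right. Gad1, Gad2 and Nos1 form a positive block, and every pair with Pvalb is negative, from -0.29 to -0.73 on the left.

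Pvalb was negatively correlated with the other 4 genes, at -0.732 with Gad2, -0.703 with Nos1, -0.596 with Sst and -0.291 with Gad1 (exact permutation p = 0.1, 0.111, 0.232 and 0.596, adjusted 0.208, 0.208, 0.348 and 0.638; rho = -0.771, -0.600, -0.257 and -0.429, adjusted exact p = 0.308, 0.453, 0.705 and 0.572). Control 1, with the highest Pvalb and the lowest Gad2, Sst and Nos1, carried much of this. Such negative values were common for Gad1 and Sst: 69.8% of all genes had an r with Gad1 at or above that of Pvalb, and 75.5% did with Sst, against 93.0% with Gad2. Without control 1 the 4 values were -0.454, -0.164, -0.062 and 0.079. Leaving out the 2 libraries farthest from the median of the partner or, for Nos1, of Pvalb gave 0.050, -0.045, -0.846 and -0.686. Other libraries moved r the other way. Without control 2 it was -0.949 with Gad2, -0.950 with Nos1 and -0.655 with Gad1, and without Mn-exposed 14 it was -0.875 with Sst. Sst and Nos1 gave r = 0.437 (exact permutation p = 0.392, adjusted 0.490; rho = 0.257, exact p = 0.658, adjusted 0.705), and 33.8% of all genes followed Sst at least as closely as Nos1 did. Leaving out control 1 gave -0.405, Mn-exposed 14 gave 0.720, and Mn-exposed 14 with 17 gave 0.942. Sst with Gad1 (r = -0.165) and with Gad2 (r = 0.361) had adjusted exact permutation p values of 0.757 and 0.550.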

How the data were processed

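Poly(A)-selected RNA of 6 striatal samples was sequenced. The deposited values are raw counts, whole numbers of reads per Ensembl gene, per the file headers with exon positions and exonic length. Among tools, DESeq2, STAR 2.5.2b and bcl2fastq 2.17 stand in the submitters' processing notes, with the build Rnor_6.0. Which program counted the reads, and how it handled strand or multiple matches, is not stated there. Symbols came from the rule that set the 6 IDs; chromosome and strand matched RefSeq (GRCr8) for 6 of 6. The table of the whole series differed from the single files in 0 cells.

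All genes were filtered with filterByExpr (15252 kept), given TMM factors, and put through the quasi-likelihood test of edgeR 4.0.16 (R 4.3.3, robust, Benjamini-Hochberg adjustment, threshold 0.05). Log2 CPM used a prior count of 2. Correlations and ratios were tested with exact permutation tests (scipy 1.17.1), and intervals of counts and ratios are exact 95% intervals. Alternatives were DESeq2 1.42.0, limma-voom 3.58.1, other scalings and filters, and libraries left out. The test scripts were tested on simulated data. The members and lists were chosen with earlier results of these data known. The named genes are the 6 members; the genes most similar to each had no symbol and are not named. The labels' ID numbers pair control 1 with Mn-exposed 13, 2 with 14 and 4 with 17; deviations from group means correlated at 0.417, 0.109 and 0.227 over genes, each above 0.1, so the numbers were also fitted as a block. Some unmatched libraries correlated more closely, control 2 with Mn-exposed 17 at 0.274 and control 4 with Mn-exposed 14 at 0.145. Nothing in the labels ties a number to a litter, day or batch.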

Additional observations from a re-analysis of the deposited data

How the results depend on the processing

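With 3 libraries a group, precision was set by the spread between libraries, not by depth, except for Npy. The number of the 6 genes past the threshold was 0 under 17 of its 18 alternatives and 1 at an unadjusted p of 0.05. The sign of the fold change held under all 16 alternatives for Gad1, Sst and Pvalb. For Gad2 it ran from -0.11 to 0.25 with 1 library left out and was -0.13 without control 1 and Mn-exposed 13, and for Nos1 it ran from -0.43 to 0.12; the cause was not tested. Treating the ID numbers as a replicate block changed no call; the log2 fold change of Sst with it was 0.48. Over all genes, DESeq2 called 92 without the block and 291 with it, and edgeR called 0 with or without it (2115 at an unadjusted p under 0.05 with it) and 58 when control 1 and Mn-exposed 13 were left out, none of them among the 6. With 1 library left out, the log2 ratio difference ran from -1.37 to 0.03 for Pvalb to Gad1 and from -0.07 to 0.32 for Nos1 to Gad1. Leaving out 1 library moved r from -0.764 to 0.248 for Gad1 and Sst, -0.655 to 0.079 for Gad1 and Pvalb, -0.239 to 0.887 for Gad2 and Sst, and -0.405 to 0.720 for Sst and Nos1. For Gad1 and Sst, r was 0.035 with library size alone, 0.289 after removing group means and 0.347 without the 2 farthest libraries; for Gad2 and Pvalb it was 0.050 without the 2 farthest. The scaling without mitochondrial features and the prior count of 0.5 turned none of the 10 correlations without Npy; the 5 pairs with Npy were not run under them.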

Other observations

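The ratios and correlations that involve the Npy row rest on 3 to 12 counts a library. The log2 ratio of Sst to Npy was 0.31 higher in Mn-exposed libraries (two-sided exact permutation p = 0.5, adjusted 0.7), but 0.04 without Mn-exposed 14 and 0.50 without Mn-exposed 13. The log2 ratio of Npy to Gad1 was 0.39 higher (exact permutation p = 0.1, adjusted over 7 ratios 0.233) with a prior count of 2, but p was 0.3 with a prior count of 0.5. Without a prior count the groups overlapped, since Mn-exposed 14 (0.00061 Npy counts per Gad1 count) lay below control 2 (0.000637) and control 4 (0.000649). Without control 1 the difference was 0.22. The 3 counts of control 1 have an exact Poisson interval of 0.619 to 8.77 counts. Npy correlated with Gad2 at r = 0.951 (exact permutation p = 0.00417, adjusted 0.0625), with Nos1 at 0.942 (exact p = 0.00972, adjusted 0.0694) and with Pvalb at -0.852 (exact p = 0.0319, adjusted 0.120). Which reads the row holds is not known, so these values say little about Npy itself.

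The promoter windows also differed in composition. Guanine and cytosine made up 67.7% of the Gad1 window, 67.7% of that of Npy, 63.7% of that of Gad2, 60.7% of that of Pvalb, 55.3% of that of Nos1 and 45.7% of that of Sst, against a median of 51.7% over all windows.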
